A study of Solanum lycopersicum with 27 samples.

Results

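The mature leaf libraries of day 8 were 4 of the 27 libraries of the series: 2 labelled water deficit and 2 labelled control, chosen by their labels alone and kept under them. All came from wild-type tomato (Solanum lycopersicum, cultivar MoneyMaker), and each was made from polyadenylated RNA of a single leaflet of a mature leaf. The plants were 50 days old at the start of the treatment. In the group labelled water deficit, water had been withheld completely for 8 days, and in the group labelled control, plants had been watered every other day to soil capacity. The rest of the series held mature leaves at days 4, 5 and 10 and young developing leaves at day 10, under the same pair of treatments. The labels give replicate numbers but do not say that replicates came from separate plants. P-values therefore rest on the spread between libraries of the same group, estimated over all 27 libraries, and this spread may be in part technical.

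A leaf that loses water closes its stomata, and the hormone abscisic acid rises and switches on genes whose products protect membranes and proteins or change the solute content of the cell. Photosynthesis, cell expansion and growth genes are commonly turned down in drying leaves of many plant species. Mature leaves can also enter senescence, in which chloroplast proteins are broken down. This is background: of the 34688 locus identifiers deposited, 0 matched the 41476 genes of the RefSeq table for the SLM_r2.1 assembly, so no locus below carries a name, a role, a position or a sequence. For the same reason the leaf identity and the labels were not checked against marker genes. In bulk leaf tissue, fewer cells of a type and less RNA per cell cannot be told apart, and every level is relative to the library total.

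The 4 libraries had 16152430 and 18098044 counts in control-labelled replicates 1 and 2, and 19385539 and 18483744 counts in deficit-labelled replicates 1 and 2. Between 20550 and 20784 loci had at least 1 count, and 6.47% to 6.89% of counts fell on the 10 most abundant loci. Depth, loci detected and the share of the top loci were thus similar in both arms.

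The day 8 libraries stood apart from the earlier days in an arm that the labels call control. On the log2 scale of CPM (counts scaled to the same library total), control-labelled replicate 1 correlated with the mature control-labelled libraries of day 4 at a mean r of 0.889 (n = 3), and replicate 2 at 0.894 (n = 3). Deficit-labelled replicates 1 and 2 correlated with these same day 4 control-labelled libraries at 0.981 and 0.980 (n = 3 each). The libraries labelled as unwatered for 8 days were therefore closer to control-labelled leaves of day 4 than the libraries labelled as watered at day 8 were. The same order held against the mature deficit-labelled libraries of day 4. With these, control-labelled replicates 1 and 2 correlated at 0.876 and 0.880, and deficit-labelled replicates 1 and 2 at 0.974 and 0.976 (n = 3 each). Control-labelled replicates 1 and 2 were in turn close to the mature control-labelled libraries of day 10, at 0.977 and 0.980 (n = 2 each), and to replicate 1 of the mature day 10 deficit group, at 0.975 and 0.979. That day 10 library also stood apart from its own group, and it shares the estimate of the spread used below. Whether a single library carries the wrong label, or the labels of the arms are exchanged, was not tested. Each direction below is that of the libraries as labelled, and an exchange of the arms would turn every one of them. These correlations run across loci, which are not independent replicates.

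**Figure D1:**
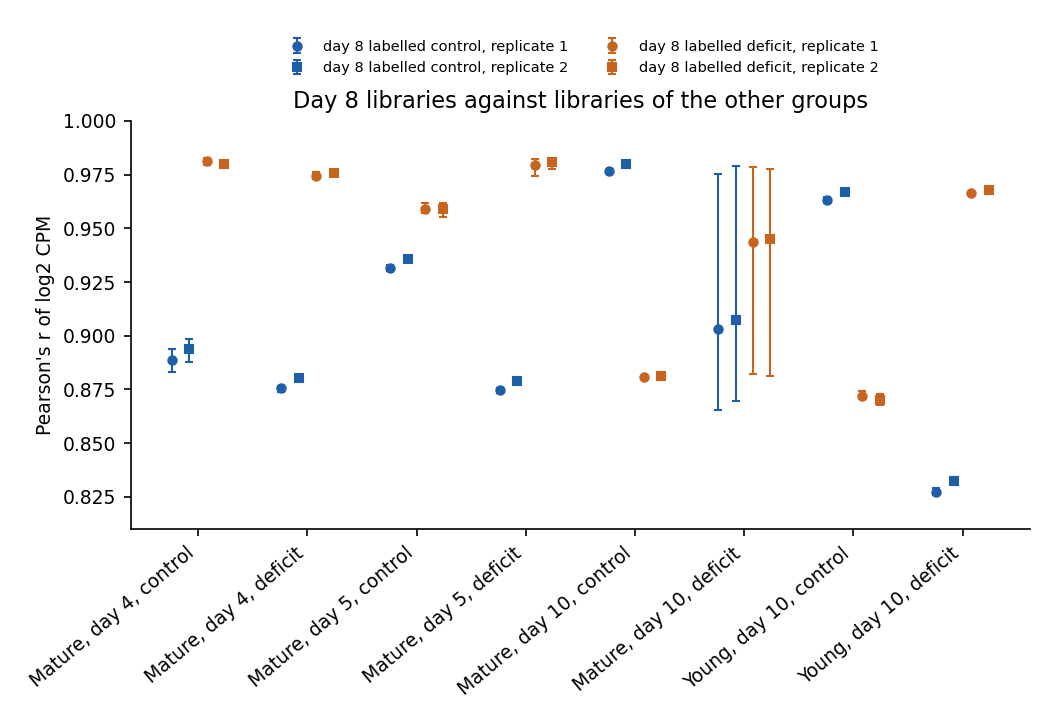
Pearson's r of log2 CPM across 19087 loci between each of the 4 day 8 libraries and the libraries of each other group (points, mean over the group's libraries; bars, lowest to highest). Control-labelled day 8 libraries (blue) were closest to late control-labelled leaves, at 0.977 and 0.980 for mature day 10, and deficit-labelled ones (orange) were close to day 4 control-labelled leaves, at 0.981 and 0.980, and to day 5 deficit-labelled leaves, at 0.979 and 0.981.

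Within an arm the 2 replicates were alike. The control-labelled pair correlated at r = 0.993 and differed by a median of 0.14 in log2 CPM, with 450 of 19087 loci at least 2-fold apart. The deficit-labelled pair correlated at r = 0.992 and differed by a median of 0.11, with 431 loci at least 2-fold apart. Between the arms, the 4 pairs of libraries correlated at r = 0.870 to 0.875 and differed by a median of 0.68 to 0.69, with 6378 to 6664 loci at least 2-fold apart. The first principal component of the 4 libraries alone carried 94.1% of their variance. The replicates differed from each other by more than sampling noise (chi-square per degree of freedom 5.82 and 4.15), so they were not taken for copies of 1 library. This does not show that they came from separate plants.

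The comparison of the arms asked which transcripts differed after 8 days of withheld water. With all 27 libraries sharing one estimate of the spread, edgeR's quasi-likelihood test called 67.2% of the 19087 loci tested, at a Benjamini-Hochberg adjusted p below 0.05. This is the background against which every count of called loci below has to be read. Of all loci tested, 34.7% were higher and 32.5% lower in deficit-labelled libraries, medians of 1.06 and -0.89 on the log2 scale. The CPM of the arms did not overlap at 85.8% of loci, 8382 of them higher and 7999 lower in deficit-labelled libraries. With 2 libraries in each arm, such separation is common even at loci that do not differ. Only 7 loci were called although the arms overlapped.

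The near-even split of the total hid opposite leanings of small and large differences. Of the called loci under 2-fold, 3113 were higher and 3515 lower in deficit-labelled libraries. Among called loci with a change of at least 2-fold, 3513 were higher and 2689 lower in deficit-labelled libraries, which is 18.4% and 14.1% of all loci tested. At 4-fold or more the numbers were 1640 higher and 866 lower, at 8-fold or more 862 and 382, and at 32-fold or more 299 and 142. The higher loci thus made up 51.6% of all called loci, 56.6% of those changed 2-fold and 65.4% of those changed 4-fold. The median absolute log2 fold change was 0.70 over all loci, and 1 in 10 loci exceeded 2.41. The median log2 fold change itself was 0.02. Where the test asked for a change of more than 2-fold, rather than the estimate reaching it, 3071 loci passed, of which 64.1% were higher in deficit-labelled libraries.

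**Figure D2:**
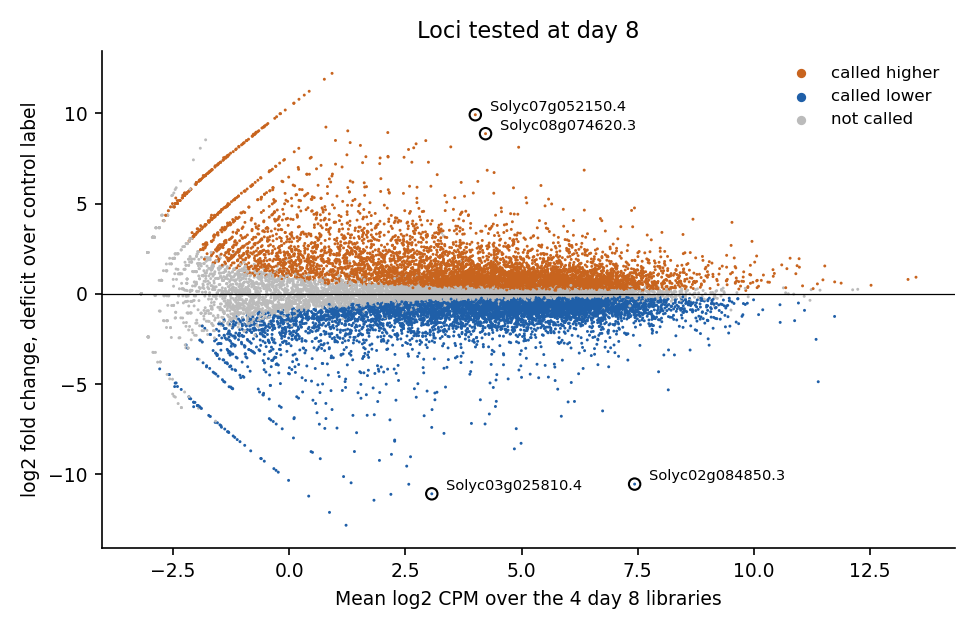
Log2 fold change of deficit-labelled over control-labelled libraries at day 8 against mean log2 CPM over the 4 libraries, 1 point per locus, for the 19087 loci tested. Orange and blue points were called higher and lower and grey points were not called; circles mark the 4 loci described by name, at log2 fold changes of 9.92, 8.87, -11.08 and -10.54.

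Loci that were not called included well measured ones and uncertain ones. Of the 6257 loci not called, 4201 had a 95% interval of the fold change that lay wholly within 2-fold in either direction, and their median level was 21.1 CPM. Another 577 had an estimate of at least 2-fold without passing the test, and their median level was 0.352 CPM. Most of the second set was scarce, but 11 of its loci had 10 CPM or more, of which 5 carried identifiers of unplaced sequence. The remaining 1479 loci were in neither set.

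Abundance was followed over all 27 libraries, so that the classes do not rest on day 8 alone. The share of loci called rose from 40.4% of the 2282 loci under 1 CPM to 63.7% of the 5106 loci from 1 to 10 CPM and 72.8% of the 9456 loci from 10 to 100 CPM. It was 79.0% of the 2177 loci from 100 to 1000 CPM. Up to 100 CPM the typical size of the change went the other way, with a median absolute log2 fold change of 1.34 under 1 CPM and 0.58 from 10 to 100 CPM. Above that it was 0.62 from 100 to 1000 CPM and 0.76 at 1000 CPM or more. The median standard error was 0.69 under 1 CPM, 0.14 from 10 to 100 CPM, 0.13 from 100 to 1000 CPM and 0.16 at 1000 CPM or more. In the 4 classes below 1000 CPM, 50.8% to 53.5% of called loci were higher in deficit-labelled libraries. Of the 66 loci at 1000 CPM or more, 44 were called higher and 11 lower, and their median log2 fold change was 0.64. This class depends on which libraries rank the loci. Of the 50 most abundant loci of the control-labelled day 8 arm itself, 14 were called higher and 26 lower in deficit-labelled libraries, and of the 50 of the deficit-labelled arm 37 and 3. Ranked by the mean over the 4 day 8 libraries, 45.7% of called loci from 100 to 1000 CPM and 76.0% of those at 1000 CPM or more were higher.

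**Figure D3:**
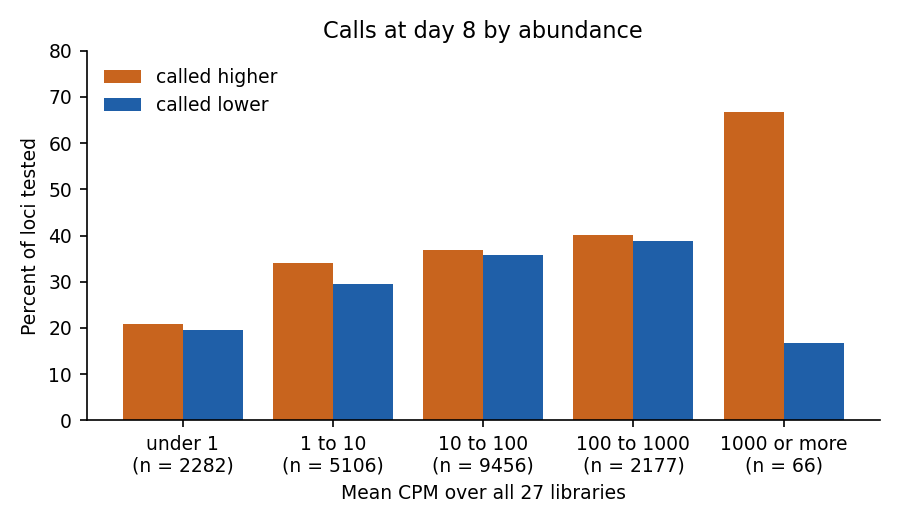
Percent of tested loci called higher (orange) or lower (blue) in deficit-labelled than in control-labelled libraries at day 8, by mean CPM over all 27 libraries. Both bars rise with abundance up to 1000 CPM and stay close to each other; in the top class of 66 loci, 44 were called higher and 11 lower.

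The composition of the RNA pool differed to match. The loci called higher held 26.8% ± 0.171 (SD, n = 2) of counts in control-labelled and 52.9% ± 0.364 (SD, n = 2) in deficit-labelled libraries. The loci called lower held 51.3% ± 0.0861 (SD, n = 2) and 25.5% ± 0.265 (SD, n = 2). The values of these same libraries chose both sets, so the shares describe them and carry no test. Loci that were not called held 21.9% and 21.6% of counts. The mature leaves of day 4 entered the choice of loci to test and the shared spread, but not the day 8 difference. There the set called higher at day 8 held 47.8% ± 1.22 (SD, n = 3) of counts in control-labelled and 47.1% ± 0.522 (SD, n = 3) in deficit-labelled libraries. At day 5 it held 42.3% ± 0.430 (SD, n = 3) and 48.5% ± 1.06 (SD, n = 3). The control-labelled share was thus lower at day 5 than at day 4. In young leaves of day 10 the set held 30.1% ± 0.756 (SD, n = 3) of counts in the control-labelled arm, against 53.8% ± 0.701 (SD, n = 3) in the other.

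Of the 50 most abundant loci of each arm, 27 were common to both. The 50 of the control-labelled arm took 13.6% of its counts and 11.7% of the counts of the deficit-labelled arm. The 50 of the deficit-labelled arm took 15.1% of its counts and 9.37% of those of the control-labelled arm.

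Transcripts present in a single arm were few. In 86 loci both control-labelled libraries had 0 counts and each deficit-labelled library had at least 10. A count of 0 allows up to 3 counts, or 0.156 to 0.184 CPM in these libraries, for counting error only. Most of these loci were already counted at day 4: 81 of the 86 had counts in all 6 mature libraries of that day, and 3 had none in any. The median level of the 86 at day 4 was 1.10 CPM in control-labelled and 1.51 CPM in deficit-labelled leaves. By day 5 the medians were 0.370 and 1.46 CPM. The reverse set held 29 loci, with 0 counts in both deficit-labelled libraries and at least 10 in each control-labelled library. Of these 29, 13 had no count in any mature day 4 library and 3 had counts in all 6. The median level of the 29 at day 4 was 0.0175 CPM in control-labelled and 0 CPM in deficit-labelled leaves. Most of the first set was thus counted at day 4 and at 0 in control-labelled leaves at day 8, and the median of the second set was near 0 at day 4.

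Among called loci without overlap and with a mean log2 CPM of at least 3, the locus highest in deficit-labelled relative to control-labelled libraries was Solyc07g052150.4, on chromosome 7 by its identifier. It had 0.368 and 0.556 CPM (6 and 10 counts) in control-labelled replicates 1 and 2 and 485 and 431 CPM in deficit-labelled replicates 1 and 2. Every deficit-labelled value lay above every control-labelled value, as the choice of loci required. The quasi-likelihood test gave a log2 difference of 9.92 (SE 1.61, adjusted p = 4.36e-05). The difference of the arms was 0.88 at day 4 (adjusted p = 0.522) and 4.33 at day 5 (adjusted p = 0.00196) on the log2 scale. Without replicate 1 of the mature day 10 deficit group the day 4 difference was called too, at 0.87 (adjusted p = 3.08e-05). At day 8 both arms were below their day 4 levels, which had averaged 1106 CPM in deficit-labelled and 600.1 CPM in control-labelled leaves. With all libraries in the fit, the log2 change of -1.27 in the deficit-labelled arm was not called (adjusted p = 0.351, quasi-likelihood test).

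The next locus in this direction was Solyc08g074620.3, on chromosome 8 by its identifier. It had 0.674 and 0.945 CPM in the control-labelled and 387 and 383 CPM in the deficit-labelled replicates, without overlap (log2 fold change 8.87, SE 1.34, adjusted p = 2.20e-05, quasi-likelihood test). The 6 libraries of mature day 4 leaves had held it between 521 and 614 CPM in either arm, a log2 difference of -0.06 (adjusted p = 0.975). At day 5 the arms had 237 ± 51.4 CPM (SD, n = 3, control-labelled) and 472 ± 17.7 CPM (SD, n = 3, deficit-labelled), a log2 difference of 0.99 with an adjusted p of 0.327. The 6 values of day 5 did not overlap between the arms. Without replicate 1 of the mature day 10 deficit group, the day 5 difference was 0.98 (SE 0.11) and called (adjusted p = 5.99e-08), while that of day 4 was -0.07 (adjusted p = 0.680). Both arms were lower at day 8 than at day 4. With all libraries in the fit, the log2 change of -0.52 in the deficit-labelled arm was not called (adjusted p = 0.684, quasi-likelihood test). Young leaves of day 10 held 4.38 ± 0.660 CPM (SD, n = 3) in the control-labelled arm, against 88.8 ± 8.49 CPM (SD, n = 3) in the other.

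By the same limits, the locus lowest in deficit-labelled relative to control-labelled libraries was Solyc03g025810.4, on chromosome 3 by its identifier. It had 285 and 324 CPM in the control-labelled replicates, and 0.0520 and 0.221 CPM in the deficit-labelled ones, which are 1 and 4 counts. The log2 difference of -11.08 (SE 2.42, adjusted p = 0.000609 by the quasi-likelihood test) rests on these few counts, and the first of them is under the floor of 3. At day 4 no library had more than 1 count, and at day 5 the control-labelled libraries had 9 to 31 counts and the deficit-labelled ones 1 to 3. The day 5 difference of -3.16 (adjusted p = 0.491) was called without replicate 1 of the mature day 10 deficit group, at -3.18 (adjusted p = 0.000147). The day 8 difference thus went with a high level in control-labelled leaves, from near 0 in both arms at day 4. In late control-labelled leaves it stayed high, at 344 ± 7.28 CPM (SD, n = 2) in mature and 291 ± 18.2 CPM (SD, n = 3) in young leaf at day 10.

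Solyc02g084850.3, on chromosome 2 by its identifier, was far more abundant. It had 6724 and 6600.1 CPM in control-labelled replicates 1 and 2, and 3.53 and 5.41 CPM in deficit-labelled replicates 1 and 2, which the quasi-likelihood test put at a log2 difference of -10.54 (SE 2.22, adjusted p = 0.000451). In control-labelled leaves its mean was 5.58 ± 1.61 CPM (SD, n = 3) on day 4, against 66.1 ± 8.75 CPM (SD, n = 3) on day 5. Deficit-labelled leaves had 1.07 ± 0.561 CPM (SD, n = 3) and 4.46 ± 0.270 CPM (SD, n = 3) on these days. The log2 differences of -2.39 at day 4 (adjusted p = 0.383) and -3.89 at day 5 (adjusted p = 0.0471) preceded that of day 8. Without replicate 1 of the mature day 10 deficit group both were called, at -2.39 (adjusted p = 0.0437) and -3.90 (adjusted p = 8.41e-06). It reached 12405 ± 1189 CPM (SD, n = 2) in mature and 20099 ± 3701 CPM (SD, n = 3) in young control-labelled leaf at day 10. Replicate 1 of the mature day 10 deficit group had 13809 CPM, beside 9.03 and 70.9 CPM in replicates 2 and 3. Without that library the standard errors at day 8 were 0.31, 0.24, 0.29 and 0.72 for the 4 loci in the order given, with log2 fold changes of 9.93, 8.88, -11.07 and -10.53.

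**Figure D4:**
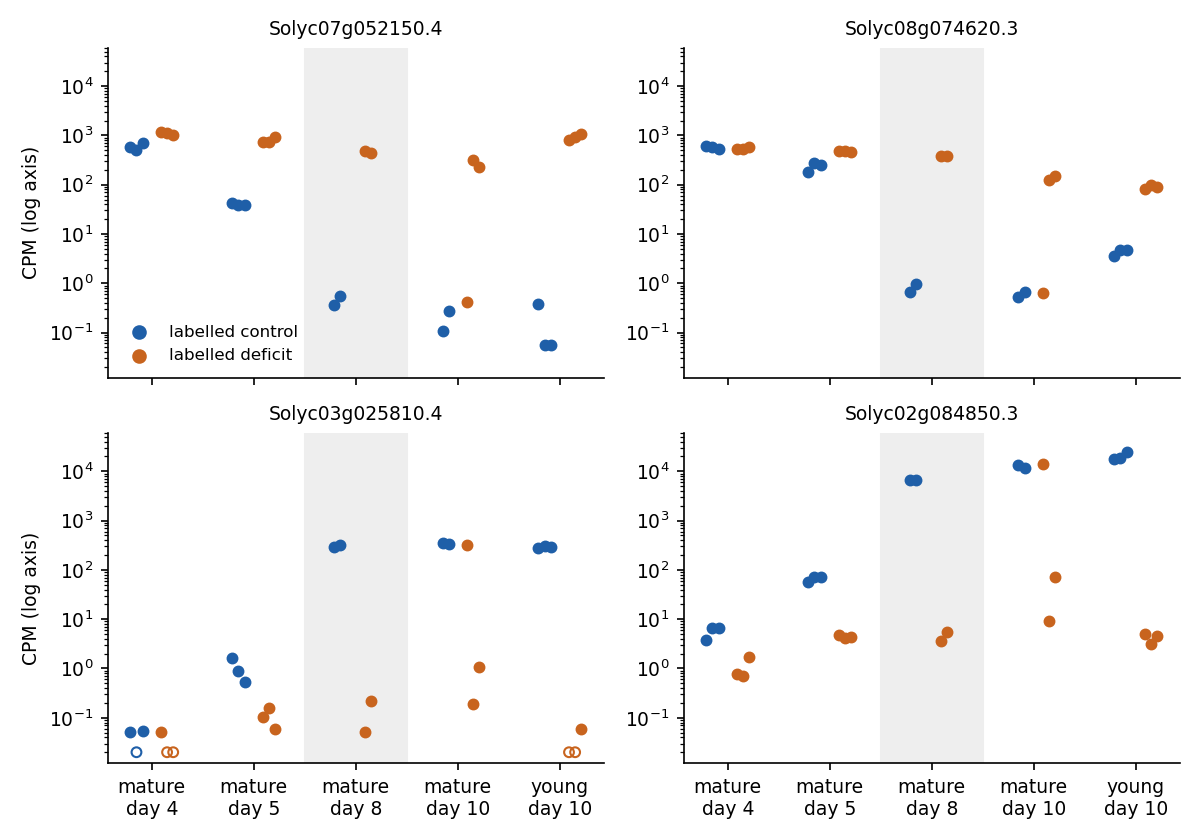
CPM of 4 loci in all 27 libraries, with day 8 in the grey band: the 2 largest differences in each direction among called, non-overlapping loci with a mean log2 CPM of at least 3, on a log axis, 1 point per library, control-labelled in blue and deficit-labelled in orange; open points at the bottom mark 0 counts. At day 8 the arms lie apart at each locus (485 and 431 against 0.368 and 0.556 CPM for Solyc07g052150.4), and 1 deficit-labelled library of mature day 10 lies with the control-labelled ones.

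Which arm had moved from day 4 was described for the 6202 loci called with a change of at least 2-fold. The day 8 libraries themselves chose these loci, so no test is given. From day 4 to day 8, 63.4% of them changed at least 2-fold in the control-labelled arm alone, 3.32% in the deficit-labelled arm alone, 10.2% in both and 23.1% in neither. Over all loci, 29.6% differed at least 2-fold between days 4 and 8 in control-labelled and 7.54% in deficit-labelled leaves. The 3513 loci higher in deficit-labelled libraries had a median log2 change from day 4 of -1.67 in the control-labelled and 0.22 in the deficit-labelled arm. The 2689 lower loci had medians of 1.27 and -0.35. The largest part of the day 8 difference was therefore a departure of the control-labelled leaves from day 4, in both directions. Collection day and any batch that goes with it cannot be told apart within an arm.

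The same 2 sets of loci were then read in the libraries of the other days. The levels in those libraries were not part of the day 8 difference, though those libraries entered the choice of loci to test and the shared spread. Relative to the mean of the 6 mature day 4 libraries, the median locus of the higher set lay at -0.47 to -0.41 in the 3 control-labelled libraries of day 5 and at 0.08 to 0.12 in the 3 deficit-labelled ones. At day 10 it lay at -1.43 and -1.42 in the mature control-labelled libraries. The mature deficit-labelled libraries of day 10 had -1.39 in replicate 1, 0.10 in replicate 2 and 0.13 in replicate 3. Young leaves of day 10 had -1.32 to -1.30 where labelled control and 0.37 to 0.40 where labelled deficit. The lower set lay on the other side of day 4, at 0.29 to 0.33 in control-labelled and -0.08 to 0.05 in deficit-labelled libraries of day 5, at 0.86 and 0.87 in mature control-labelled leaf of day 10 and at 0.94 to 1.04 in young control-labelled leaf. In the control-labelled libraries, the higher set thus lay partway to its day 8 level of -1.56 and -1.55 at day 5 and close to it at day 10, in mature and young leaf. The lower set was further from its day 8 level of 1.29 and 1.20.

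**Figure D5:**
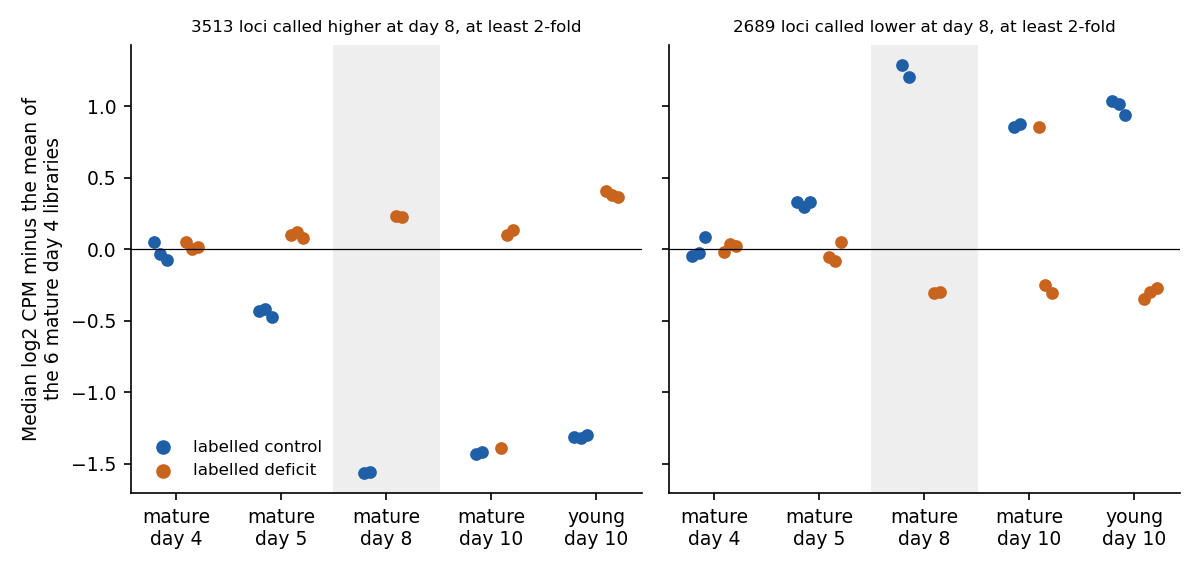
Median over 3513 loci called at least 2-fold higher (left) and 2689 called at least 2-fold lower (right) at day 8 of log2 CPM minus the mean of the 6 mature day 4 libraries, 1 point per library, control-labelled in blue and deficit-labelled in orange. The day 8 libraries (grey band) chose the loci; on the other days the higher set lay at -0.47 to -0.41 at day 5 and at -1.43 and -1.42 at day 10 in control-labelled mature leaf.

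Each other day has its own libraries in both arms, so the fold changes there are free of the day 8 values. The calls are not wholly free of them, since all days share the estimate of the spread and loci of small spread are called more readily on every day. At day 5, 38.0% of the higher set were called higher and 2.39% lower, against 14.6% and 13.2% of all loci tested. Of the lower set, 26.3% were called lower and 1.23% higher. At day 10, 74.2% of the higher set were called higher, against 22.7% of all loci, and 41.7% of the lower set lower, against 12.4%. At day 4 the higher set had 4.50% called higher and 5.41% called lower, near the 5.33% and 6.48% of all loci. The lower set had 2.75% called higher and 1.97% called lower at day 4, below those shares. Replicate 1 of the mature day 10 deficit group widens the shared spread, and without it the day 5 shares were 60.2% and 48.9% and the day 10 shares 86.1% and 84.5%. In that fit the day 4 comparison called 24.5% of the higher set higher and 17.2% lower, against 14.9% and 16.0% of all loci. Of the lower set it called 13.6% higher and 17.7% lower, so only the first stayed below the share of all loci.

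The median difference of the arms for the higher set was 0.03 at day 4, 0.56 at day 5 and 1.21 at day 10 on the log2 scale, and for the lower set 0.02, -0.39 and -0.66. With replicate 1 of the mature deficit-labelled leaves of day 10 left out, the last values became 1.57 and -1.14.

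Whether the difference of the arms at day 8 differed from that of the other days was tested as an interaction. Against day 4 it differed at 57.9% of loci, with 5852 more positive and 5195 more negative at day 8. Against day 5 it differed at 44.6% of loci, 4499 more positive and 4013 more negative. Without replicate 1 of the mature day 10 deficit group, the loci called rose from 11047 to 12715 against day 4 and from 8512 to 11059 against day 5. Of the loci with an interaction called with all libraries in the fit, 91.5% against day 4 and 89.3% against day 5 had the larger absolute difference at day 8. Among these loci the median absolute log2 difference was 0.95 at day 8 and 0.21 at day 4 for the first test, and 0.92 at day 8 and 0.21 at day 5 for the second. The values compared also chose these loci, here and for day 10 below, so such shares and medians describe them and are no test. Over all loci tested, the median absolute log2 difference was 0.70 at day 8, 0.21 at day 4, 0.26 at day 5 and 0.35 at day 10.

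Against day 10 the interaction was called at 18.3% of loci, 1606 more positive and 1881 more negative at day 8, and 97.0% of these had the larger absolute difference at day 8. This rests in part on replicate 1 of the mature day 10 deficit group. Without it 5033 loci were called, 2705 more positive and 2328 more negative, and 71.1% had the larger difference at day 8. Without a day 8 library the number was 1612 for control-labelled replicate 1, 2333 for control-labelled replicate 2, 1893 for deficit-labelled replicate 1 and 1617 for deficit-labelled replicate 2, against 3487 with all libraries.

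The chromosome digits of the identifiers gave one group that differed from the rest. On chromosomes 1 to 12, 64.5% (chromosome 10) to 70.3% (chromosome 3) of tested loci were called, near the background of 67.2%. The share of called loci that were higher in deficit-labelled libraries ran from 47.0% on chromosome 11 to 57.3% on chromosome 10. Identifiers of chromosome 0 stand for sequence not placed on a chromosome, and there 4 of 144 tested loci were called, or 2.78%. In the class of 10 to 100 CPM, 0 of 17 such loci were called against 72.9% of the 9439 placed loci. Their median standard error in this class was 1.42, against 0.14 for placed loci, beside a median absolute log2 fold change of 0.83 against 0.57.

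These unplaced loci varied between replicates. All 578 unplaced loci of the deposited counts, tested or not, took 0.0244% and 0.0212% of counts in control-labelled replicates 1 and 2. In deficit-labelled replicates 1 and 2 they took 0.0148% and 0.0734%. Of the 144 tested, 121 were higher in deficit-labelled replicate 2 than in replicate 1. The median difference between replicates was 1.59 in log2 CPM in the deficit-labelled arm, against 0.11 at placed loci. In the control-labelled arm it was 0.41, against 0.14. Unplaced and placed loci were not matched for level here, with medians of 0.579 and 17.8 CPM over all 27 libraries. Over all 27 libraries the share of counts of all 578 unplaced loci ran from 0.00806% to 0.344%.

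Some loci with consecutive identifiers changed in the same direction. Among the 34110 loci of chromosomes 1 to 12 taken in identifier order, 2505 were called with at least a 4-fold change. These were 7.34% of the loci in that order. They included 187 pairs of neighbours and 38 longer runs that changed the same way. How many such pairs and runs a random order would give was not tested. The longest run held 6 loci of chromosome 2, all higher in deficit-labelled libraries, with summed means of 306 CPM in control-labelled and 2026 CPM in deficit-labelled leaves, of which a single locus gave 288 and 1847 CPM. A run of 3 loci on chromosome 1 fell, from 16394 CPM in control-labelled to 544 CPM in deficit-labelled leaves, of which a single locus gave 14560 and 498 CPM. Neighbours with similar sequence may share reads, so the members of a run are not independent measurements.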

How the data were processed

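The authors deposited whole-number read counts per locus, taken as raw because columns summed to different totals. The submitters' processing notes name DESeq2 without a role, and the aligner, counter, build, annotation and strand setting are not given in the sources used here, so how reads of similar or overlapping loci were counted is unknown. Columns were matched to libraries by the sample description, and groups by title.

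The tools were edgeR 4.0.16 and limma 3.58.1, run under R 4.3.3. The filterByExpr function kept 19087 of 34688 loci, which held 99.97% of counts. TMM factors ran from 0.980 to 1.01 at day 8. The robust quasi-likelihood fit took all 27 libraries in 10 groups, since 2 against 2 libraries give few degrees of freedom. P-values were adjusted by Benjamini-Hochberg over all loci tested, and standard errors were the fold change divided by the root of F. Log2 CPM used a prior count of 2. Loci described by identifier had to be called, not overlap and average at least 3 in log2 CPM at day 8, and the 2 largest differences in each direction were taken. The gene lists that had been drawn up were not used, since loci had no names. The groups, lists and tests were chosen with earlier results of these data known.

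On simulated data with 200 loci changed 2-fold at day 8, the fit recovered 68% with 5 false calls among 18603 loci. The changed loci averaged at least 1 CPM, and every other locus had the same mean in all groups. In the real data 67.2% of loci were called and scarcer loci were tested, so these rates may not hold there. Tried as alternatives were DESeq2 1.42.0, upper quartile and RLE scaling, other filters, other sets of libraries, thinned counts and a replicate block. Totals of 16152430 to 19385539 counts at day 8 set the precision, and floors cover counting error only.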

Additional observations from a re-analysis of the deposited data

Results flagged for a closer look

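The difference between the arms was not the same on all days, by the interaction test on all libraries (edgeR quasi-likelihood, adjusted p below 0.05). The number of loci whose difference at day 8 departed from that of another day was 11047 for day 4, 8512 for day 5 and 3487 for day 10. Without replicate 1 of the mature day 10 deficit group it was 12715, 11059 and 5033.

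The 4 loci described by identifier were chosen by their day 8 values, which enter each interaction, so their interactions describe them and are no independent test. The log2 difference of the arms changed by 9.04 for Solyc07g052150.4, 8.93 for Solyc08g074620.3 and -8.16 for Solyc02g084850.3 between day 4 and day 8 (adjusted p = 0.000309, 7.90e-05 and 0.0129). Between day 5 and day 8 it changed by 5.59, 7.88 and -6.65 for the same loci (adjusted p = 0.0151, 0.000468 and 0.0212). Solyc03g025810.4, with at most 1 count per library at day 4, had an adjusted p of 0.661 for day 4 and 0.388 for day 5. Without replicate 1 of the mature day 10 deficit group both were past the threshold, at adjusted p = 0.0266 and 9.36e-05.

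Between day 10 and day 8 the difference was larger in size at day 8 by -9.42 for Solyc03g025810.4 (adjusted p = 0.0259) and by -9.12 for Solyc02g084850.3 (adjusted p = 0.0149). Without replicate 1 of the mature day 10 deficit group these values were -1.83 (adjusted p = 0.116) and -2.20 (adjusted p = 0.0535), neither past the threshold.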

How the results depend on the processing

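The number of loci called at day 8 was 12830 and stayed between 11034 and 13830 over all 14 alternatives, with 50.8% to 54.2% of them higher in deficit-labelled libraries. With only the 4 day 8 libraries in the fit it was 13509, and without replicate 1 of the mature day 10 deficit group 13830. Leaving out a day 8 library, the lone library of an arm being assumed to vary like the other groups, gave 11034 to 11250 loci. The number changed at least 2-fold was 6202, and 5292 to 6385 except where the 2-fold change itself was tested, a setting added after the data were seen, with 3071. The interaction with day 10 ran from 1612 to 2333 loci when a day 8 library was left out, and was 5033 without replicate 1 of the mature day 10 deficit group, and the cause was not tested. Loci at least 4-fold higher outnumbered those lower in each alternative (1285 to 1748 against 617 to 983). The median day 10 difference of the lower set moved from -0.66 to -1.17 without replicate 1 of the mature day 10 deficit group, with the set drawn anew.

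Same-numbered replicates of the arms did not deviate together (r = -0.0261 across 19087 loci, which are not independent). Each arm gives a single deviation between its replicates, so this cannot decide whether the numbers pair the libraries. With a replicate block 12771 loci were called with all libraries and 13410 with the day 8 libraries alone. The 4 loci described by identifier kept their direction and stayed past the threshold in each alternative that gave an adjusted p, from 1.86e-25 to 0.0125. DESeq2 gave none for Solyc03g025810.4.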
